A study of Homo sapiens with 6 samples.

Results

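Cadherins are single-pass membrane proteins whose extracellular repeats bind calcium and hold neighbouring cells together. Classical cadherins sit in adherens junctions and bind catenins, which connect them to actin. Desmosomal cadherins, the desmogleins and desmocollins, sit in desmosomes and are tied through plakoglobin, plakophilins and desmoplakin to keratin filaments. Protocadherins are the largest branch, and most of them belong to the alpha, beta and gamma gene clusters, in which each first exon has its own promoter. In the alpha and gamma clusters every first exon is spliced to constant exons shared by the whole cluster. Stratified epithelia such as the oral lining, and the carcinomas that arise from them, depend on E-cadherin, P-cadherin and the desmosomal cadherins for their cohesion.

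The genes described here are the protein-coding rows of the count table whose symbol is CDH, PCDH, DSC or DSG followed by a number, or by a cluster letter and number. This rule gave 84 genes among 21776 rows. RNA was sequenced from SCC25, a human oral squamous cell carcinoma cell line labelled wild type, in 6 libraries. There were 3 hypoxia libraries, from cells kept for 12 h in 1% O2 with CO2 and nitrogen, and 3 normoxia libraries, from cells kept for 12 h in air with CO2. Cells of both groups grew in DMEM/F12 with fetal bovine serum, and no other agent or genetic change is named for any of them. SCC25 is 1 line, and the labels do not say whether replicates came from separate cultures, so p-values measure only the spread between these samples, which may be technical.

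Gene counts summed to 37278703, 29637189 and 29981208 in normoxia libraries 1 to 3 and to 30186813, 36076088 and 32272716 in hypoxia libraries 1 to 3. The exposure was visible in the RNA: all 10 of 10 hypoxia marker genes were higher in hypoxia, with a median log2-fold change of 2.92. Among them NDRG1, a hypoxia-induced gene, was at 32.8, 27.2 and 81.1 FPKM in normoxia (fragments per kilobase of gene, scaled to the library total), against 1830, 2180 and 2150 FPKM in hypoxia. Normoxia library 3 stood above the other normoxia libraries for NDRG1 and for CA9, a carbonic anhydrase induced by hypoxia, which was at 20.8, 17.0 and 43.2 FPKM in normoxia. Values for some genes are also given with that library left out.

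The labelled cell type was checked against marker genes. Of 8 squamous epithelial markers 7 were tested, EPCAM was the most abundant at 204, 200 and 201 FPKM in normoxia, and KRT5 was at 53.0, 52.7 and 60.6 FPKM. The squamous markers summed to 438, 432 and 439 FPKM in normoxia and to 340, 323 and 327 FPKM in hypoxia. Of the 7 tested, 4 were lower in hypoxia (KRT6A 17.3-fold, SFN 1.74-fold, EPCAM 1.27-fold and KRT5 1.14-fold), KRT17 and KRT16 were higher and TP63 did not pass. KRT14, a basal keratin, was absent, with at most 1 count in any library. The fibroblast markers summed to 0.686, 0.520 and 0.959 FPKM in normoxia and to 3.97, 3.30 and 3.00 FPKM in hypoxia, most of it COL1A1. COL1A1, PDGFRB (13, 7 and 11 counts in normoxia, 24, 19 and 20 in hypoxia) and LUM (1, 1 and 2 counts, then 27, 9 and 8) were above normoxia in every hypoxia library, and the other 5 of these 8 genes, with at most 9 counts, overlapped. The endothelial markers summed to 1.13, 1.14 and 1.36 FPKM in normoxia and to 2.01, 1.78 and 2.05 FPKM in hypoxia, led by ESAM. VWF, KDR and TEK had 0 counts in normoxia and a few in every hypoxia library (10, 9 and 4 for VWF, 4, 1 and 1 for KDR, 1, 2 and 3 for TEK), PECAM1 went from 2, 0 and 0 counts to 5, 9 and 10, TIE1 had 1, 0 and 1 counts in normoxia and 0, 0 and 1 in hypoxia, and CLDN5 and EMCN were not analysed here. The leukocyte markers summed to 0.551, 0.475 and 0.988 FPKM in normoxia and to 3.93, 3.58 and 3.56 FPKM in hypoxia, led by CD14. CD14 and ITGAM (2, 3 and 2 counts in normoxia, 6, 15 and 10 in hypoxia) were above normoxia in every hypoxia library, while PTPRC, CD3E, CD3D and LYZ had at most 2 counts in any library and overlapped. The neural and melanocytic markers summed to 38.5, 37.2 and 44.9 FPKM in normoxia and to 51.4, 52.8 and 54.8 FPKM in hypoxia, led by TUBB3, a neuronal tubulin also made by many cancer lines. TUBB3 and PMEL were above normoxia in every hypoxia library, SYP overlapped, and GFAP had 1 count in each normoxia library and 0 in hypoxia. Apart from the squamous sum, which was lower, these sums were higher in every hypoxia library than in any normoxia library, and the part of all these lists in the cadherin values was not tested. For single genes, the conditions did not overlap, in either direction, in 80.5% of all genes tested.

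Sequences from the starts of these genes are shown because the gamma protocadherins are separate promoters in front of shared exons, and because PCDH1 and DSG2 moved by different amounts. RefSeq promoter windows on GRCh38.p14, from 250 bases before to 50 bases after a start, matched 66 of the 84 genes, with 83 windows. The genes CDH1 and CDH3 had no window. The letters CGCTGT, searched on both strands, were chosen after the sequences were seen. They occurred in 21 of 25 gamma windows, in 7 of 11 alpha windows and in 1 of 13 beta windows, against 11.2% of all 35116 windows. Only these exact letters were searched, so a window without them may still hold a related promoter element. The 5 stretches below, each 46 bases on the plus strand with CGCTGT in capitals, lie at chr5:141354956-141355001 (PCDHGA4), chr5:141359917-141359962 (PCDHGB2), chr5:141412927-141412972 (PCDHGA10), chr5:141350021-141350066 (PCDHGB1) and chr5:141475876-141475921 (PCDHGC3).
PCDHGA4: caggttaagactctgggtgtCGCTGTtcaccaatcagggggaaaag
PCDHGB2: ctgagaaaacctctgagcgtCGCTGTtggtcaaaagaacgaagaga
PCDHGA10: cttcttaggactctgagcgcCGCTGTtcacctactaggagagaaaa
PCDHGB1: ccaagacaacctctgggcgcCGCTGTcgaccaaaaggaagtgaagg
PCDHGC3: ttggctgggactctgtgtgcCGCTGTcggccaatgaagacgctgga
The letters were present both in genes that were higher in hypoxia and in PCDHGC3, which did not pass the test, and were missing from the windows of PCDHGA11, PCDHGB3 and PCDHGB7 and from 1 of the 2 windows of PCDHGB4.

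E-boxes with the letters CAGGTG, the form bound by the SNAI and ZEB repressors of CDH1, were searched on both strands. They occurred in 11 of the 83 windows and in 20.6% of all windows. The letters ACGTG, a form of the core of the hypoxia response element, occurred in 13 of the 83 windows and in 21.4% of all windows. Other forms of that core were not searched. In the PCDH1 and DSG2 windows below CAGGTG or its reverse complement is in capitals, once for PCDH1 at chr5:141869578-141869877 on the minus strand, and at 2 places for DSG2 at chr18:31497927-31498226 on the plus strand. Both genes were higher in hypoxia.
PCDH1: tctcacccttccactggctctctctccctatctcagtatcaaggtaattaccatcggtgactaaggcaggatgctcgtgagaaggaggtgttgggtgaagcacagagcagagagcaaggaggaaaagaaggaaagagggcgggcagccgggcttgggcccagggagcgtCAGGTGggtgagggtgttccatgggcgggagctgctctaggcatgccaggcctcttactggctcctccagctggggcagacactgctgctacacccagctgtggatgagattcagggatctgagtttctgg
DSG2: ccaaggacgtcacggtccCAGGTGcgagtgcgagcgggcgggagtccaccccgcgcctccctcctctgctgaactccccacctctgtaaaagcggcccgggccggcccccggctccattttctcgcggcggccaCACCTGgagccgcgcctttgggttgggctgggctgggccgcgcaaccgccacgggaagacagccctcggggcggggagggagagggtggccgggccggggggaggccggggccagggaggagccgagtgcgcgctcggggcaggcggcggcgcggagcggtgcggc

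Most of the cadherin RNA of these cells came from E-cadherin, P-cadherin and desmoglein 2, and the summed level of the family was higher in hypoxia. The 84 genes summed to 162, 159 and 178 FPKM in normoxia libraries 1 to 3 and to 310, 325 and 312 FPKM in hypoxia libraries 1 to 3. The lowest hypoxia library lay above the highest normoxia library. CDH1, CDH3 and DSG2 made up 74.1 to 75.4% of the sum in normoxia and 80.4 to 81.4% in hypoxia. In bulk RNA, fewer cells that make a transcript and less of it per cell cannot be told apart.

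At the other end of the range, 25 of the 84 genes had at most 3 counts in every library, including DSC1, CDH11, CDH16, CDH17 and 10 of the 13 alpha protocadherins. A filter on low counts, which asks for about 10 counts in at least 3 libraries, left 34 genes for testing and removed another 25 that had a few more counts. Only 13 genes reached a mean of 1 FPKM in either condition, 11 of them in normoxia. The plot of levels by library shows these 13.

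**Figure D1:**
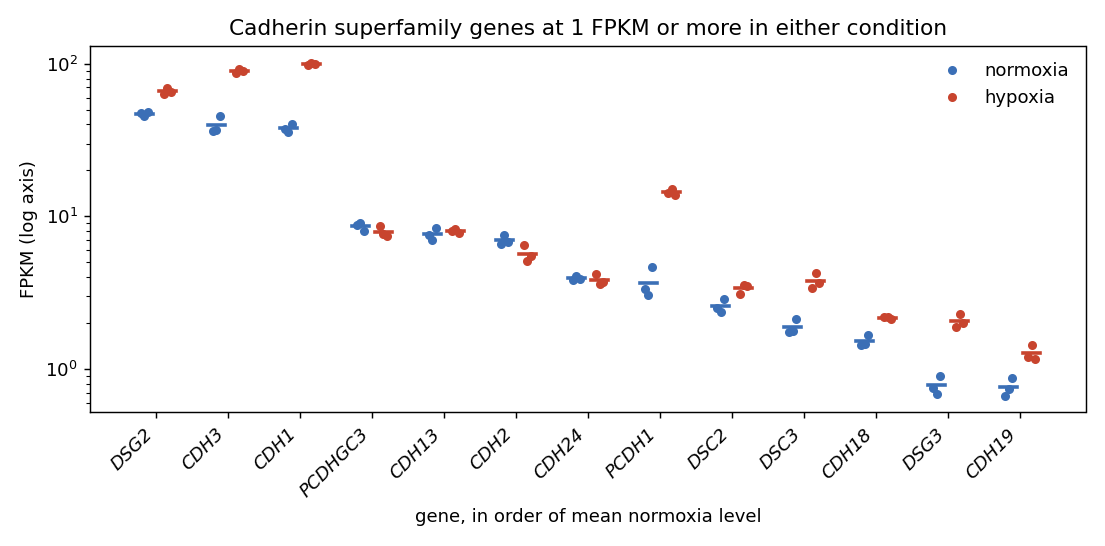
FPKM (log axis) of the 13 genes that averaged 1 FPKM or more in normoxia or hypoxia, with 1 point per library, horizontal lines for the means of 3 libraries, normoxia in blue and hypoxia in red. CDH1, CDH3 and DSG2 lie above 35 FPKM in every library, PCDH1 lies far higher in hypoxia, and PCDHGC3, CDH13 and CDH24 overlap between conditions.

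The question put to each gene was whether its RNA differed between 12 h of hypoxia and normoxia. Of the 34 genes tested, 25 were higher in hypoxia, 1 was lower and 8 did not pass an adjusted p of 0.05 (edgeR's quasi-likelihood test, Benjamini-Hochberg over 14255 genes). The background is high: 77.8% of all genes tested were called in either direction, 39.2% as higher and 38.5% as lower. The 26 called members are 76.5% of those tested, close to that background, while 73.5% were called higher. The median log2-fold change of the 34 was 1.05, against 0.02 over all genes tested, and 17 members were called higher with a log2-fold change over 1, where 19.9% of all genes were (10.5% were called lower below -1, and no member was). Values of the conditions did not overlap in 26 of the 34, against 80.5% of all genes tested.

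The filter bears on these counts and on the median. Of the 34 tested members, 11 passed the count limit in every hypoxia library but not in every normoxia library, and all 11 of these were called higher, which the way they passed favours. All 11 had a log2-fold change over 1 and so make up 11 of the 17 above, and they also raise the median. None passed in the opposite way. Of the 22 members over the limit in all 6 libraries, 14 were higher, 1 was lower and 7 did not pass, their median log2-fold change was 0.58, and 6 of them, or 27.3%, were called higher with a log2-fold change over 1. For comparison, a separate fit took only genes with at least 10 counts in every library. It called 9967 of 12665 genes in either direction, and of its 22 members 15 as higher and 1 as lower. Of the 13 members that averaged 1 FPKM or more across the 6 libraries, 9 were higher, 1 was lower and 3 did not pass, with a median log2-fold change of 0.46.

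**Figure D2:**
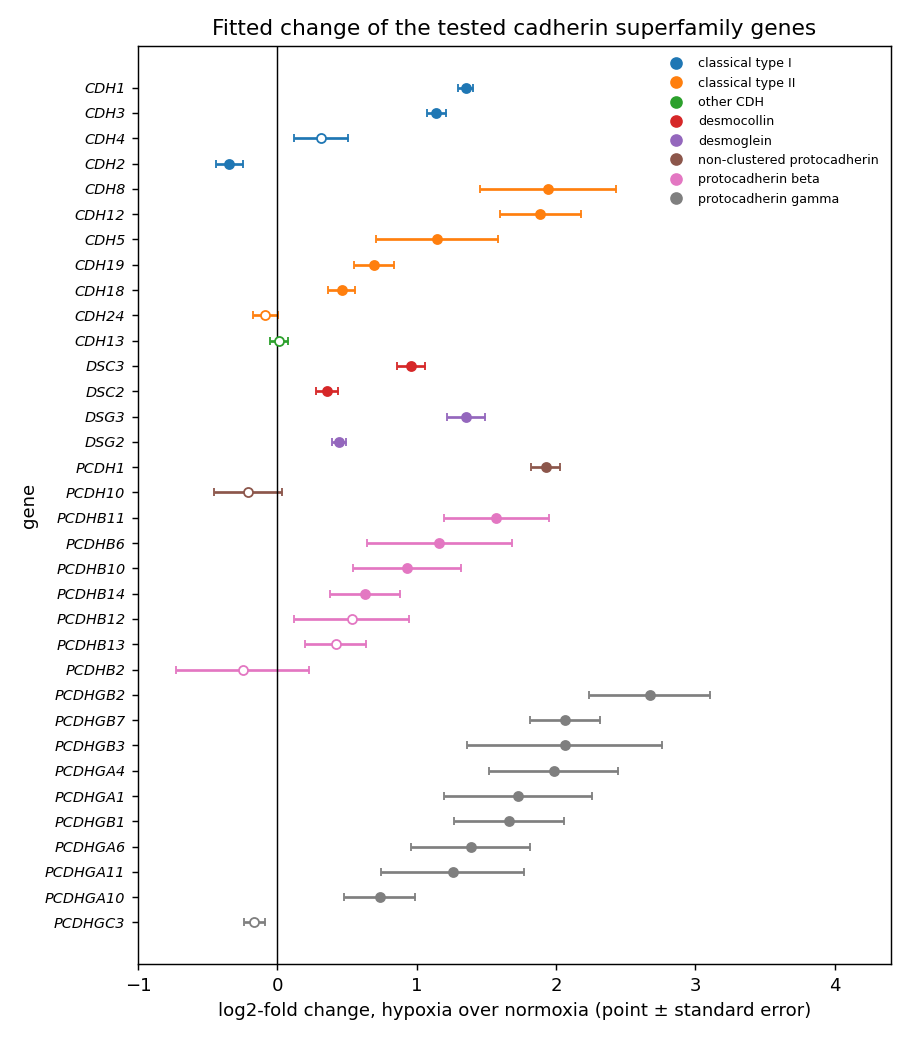
Log2-fold change, hypoxia over normoxia, of the 34 tested genes, grouped by subfamily in colour, with bars for the standard error of the edgeR fit on 3 libraries per condition and filled points for an adjusted p under 0.05. All but 5 points (CDH2, CDH24, PCDH10, PCDHB2 and PCDHGC3) lie above 0, and CDH2 is the only filled point below it.

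E-cadherin and P-cadherin, the classical type I cadherins of epithelia, both rose. CDH1, which encodes E-cadherin, was at 37.4, 35.7 and 40.5 FPKM in normoxia and at 98.1, 102 and 99.2 FPKM in hypoxia. Its hypoxia values lay well above every normoxia value. The fitted fold was 2.55, with a log2-fold change of 1.35 (SE 0.054, adjusted p = 5.77e-13, edgeR's quasi-likelihood test). CDH3, which encodes P-cadherin of basal epithelial cells, was at 36.4, 36.6 and 45.3 FPKM in normoxia and at 87.5, 92.6 and 89.3 FPKM in hypoxia. Again the conditions were far apart, with normoxia library 3 above the other normoxia libraries. Its fitted fold was 2.20 and its log2-fold change 1.14 (SE 0.070, adjusted p = 1.13e-10, edgeR's quasi-likelihood test). In RefSeq's gene order CDH3 and CDH1 are adjacent coding genes on chromosome 16. Genes on the opposite strand overlap 347 of the 6177 exonic bases of CDH1 and 694 of the 6236 of CDH3 in GENCODE release 29, and with no strand setting given, reads of such partners cannot be told apart.

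N-cadherin was the 1 member that fell. CDH2, which encodes N-cadherin of mesenchymal and neural cells, was at 6.61, 7.57 and 6.82 FPKM in normoxia and at 6.49, 5.10 and 5.52 FPKM in hypoxia. The highest hypoxia library lay just under the lowest normoxia library. The fitted change was 1.27-fold lower, a log2-fold change of -0.34 (SE 0.094, adjusted p = 0.00302, edgeR's quasi-likelihood test). CDH4, which encodes R-cadherin, was low, at 0.469, 0.334 and 0.435 FPKM in normoxia and 0.584, 0.485 and 0.528 FPKM in hypoxia, and did not pass the test (log2-fold change 0.32, SE 0.19, adjusted p = 0.148, edgeR's quasi-likelihood test). CDH15, the M-cadherin gene, had at most 5 counts in any library and was not tested.

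The make-up of the type I cadherins was compared as each gene's share of their summed FPKM in a library. CDH1 took 46.3, 44.5 and 43.5% in normoxia and 50.9, 50.9 and 51.0% in hypoxia. CDH2 took 8.17, 9.44 and 7.32% in normoxia and 3.37, 2.55 and 2.83% in hypoxia. The conditions did not overlap for either gene, with a two-sided exact permutation p of 0.1 each, the smallest that 3 against 3 libraries allow. CDH3 took 46.4% ± 1.96 (SD, n = 3) in normoxia and 45.9% ± 0.459 (SD, n = 3) in hypoxia, and its shares overlapped (exact permutation p = 0.9). The difference of its means, hypoxia minus normoxia, was -0.583 percentage points with every library and 0.530 without normoxia library 3.

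All 4 desmosomal cadherins that could be tested were higher in hypoxia, as were 39.2% of all genes tested. DSG2, the desmoglein of simple and proliferating epithelia, was at 47.5, 45.6 and 48.3 FPKM in normoxia and at 63.5, 69.6 and 65.5 FPKM in hypoxia. The conditions did not overlap, and the fitted fold was 1.36 (log2-fold change 0.44, SE 0.050, adjusted p = 3.46e-07, edgeR's quasi-likelihood test). DSG3, the desmoglein of basal squamous cells and the antigen of pemphigus vulgaris, was at 0.754, 0.688 and 0.901 FPKM in normoxia and at 1.90, 2.29 and 1.99 FPKM in hypoxia. It rose 2.56-fold (log2-fold change 1.35, SE 0.14, adjusted p = 7.88e-08, edgeR's quasi-likelihood test) but stayed far below DSG2 per length. Of the squamous markers KRT6A, SFN, EPCAM and KRT5 were lower in the same libraries, KRT17 and KRT16 were higher and TP63 did not pass. Their part in the values of DSG3 was not tested. The share of DSG3 in the summed desmoglein FPKM was 1.63% ± 0.180 (SD, n = 3) in normoxia and 3.01% ± 0.153 (SD, n = 3) in hypoxia (exact permutation p = 0.1).

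The desmocollins pair with desmogleins in the desmosome. DSC2, the widely expressed one, was at 2.50, 2.35 and 2.86 FPKM in normoxia and at 3.08, 3.57 and 3.52 FPKM in hypoxia. DSC3, the one of basal squamous cells, was at 1.75, 1.77 and 2.11 FPKM in normoxia and at 3.40, 4.24 and 3.66 FPKM in hypoxia. Neither gene overlapped between conditions. The fitted folds were 1.28 for DSC2 (log2-fold change 0.35, SE 0.080, adjusted p = 0.000629) and 1.94 for DSC3 (log2-fold change 0.96, SE 0.099, adjusted p = 1.00e-07, both by edgeR's quasi-likelihood test). DSC2 took 57.8% ± 0.906 (SD, n = 3) of the summed desmocollin FPKM in normoxia and 47.4% ± 1.64 (SD, n = 3) in hypoxia, and DSC3 42.2% ± 0.884 and 52.6% ± 1.64 (exact permutation p = 0.1 for each). Their order by FPKM therefore differed between the conditions. By counts, which are not scaled to gene length, DSC2 stayed above DSC3 in every library, with 1152, 1598 and 1408 against 782, 1166 and 901 in hypoxia.

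These genes lie side by side on chromosome 18 in RefSeq's order DSC3, DSC2, DSC1, DSG1, DSG4, DSG3 and DSG2. RNA came from the ends of this array: DSC1, of the upper epidermis, had at most 3 counts in any library, DSG1, of the same layers and the antigen of pemphigus foliaceus, had between 1 and 15 counts, and DSG4 was not analysed here.

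Among the type II cadherins, a branch best known from neurons and vessels, 5 of 6 tested members were higher and 1 did not pass. The 83.3% called is near the 77.8% of all genes tested. CDH5 and CDH8 passed the count limit in every hypoxia library but not in every normoxia library, which favours a higher call. Of the 4 over the limit in every library, 3 were higher and 1 did not pass. CDH24, the most abundant per length, was at 3.85, 4.07 and 3.91 FPKM in normoxia and at 4.21, 3.60 and 3.72 FPKM in hypoxia. Its conditions overlapped (log2-fold change -0.09, SE 0.090, adjusted p = 0.393, edgeR's quasi-likelihood test). CDH18 was at 1.44, 1.46 and 1.68 FPKM in normoxia and at 2.18, 2.18 and 2.13 FPKM in hypoxia, and rose 1.38-fold (log2-fold change 0.46, SE 0.097, adjusted p = 0.000351, edgeR's quasi-likelihood test). CDH19, known from Schwann cells, was at 0.668, 0.734 and 0.877 FPKM in normoxia and at 1.19, 1.43 and 1.17 FPKM in hypoxia, and rose 1.62-fold (log2-fold change 0.69, SE 0.14, adjusted p = 0.0003, edgeR's quasi-likelihood test). Neither of these genes overlapped between conditions.

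The rarer type II genes rested on few counts, and CDH5 and CDH8 passed the count limit only through hypoxia, which favours their higher calls. CDH8, a brain cadherin, had 8, 17 and 4 counts in normoxia and 36, 29 and 53 in hypoxia, a fitted fold of 3.84 (log2-fold change 1.94, SE 0.49, adjusted p = 0.0016, edgeR's quasi-likelihood test). Without normoxia library 2 its log2-fold change was 2.70. CDH12, likewise of the brain, had 49, 35 and 20 counts in normoxia and 144, 100 and 152 in hypoxia, and was higher (log2-fold change 1.89). CDH5, the cadherin of endothelium, had 9, 9 and 22 counts in normoxia and 32, 28 and 34 in hypoxia. It was higher (log2-fold change 1.14, adjusted p = 0.025, edgeR's quasi-likelihood test). Of the 6 endothelial markers measured, 5 were also above normoxia in every hypoxia library (ESAM and, at a few counts each, VWF, KDR, TEK and PECAM1, but not TIE1). The conditions did not overlap, in either direction, in 80.5% of all genes tested, and of these markers only ESAM was tested. The part of these markers in the CDH5 value was not tested. CDH13, or T-cadherin, which lacks a cytoplasmic tail and is anchored by lipid, is the 1 tested gene of the remaining CDH group. It was at 7.59, 7.04 and 8.44 FPKM in normoxia and at 7.97, 8.25 and 7.79 FPKM in hypoxia, overlapping throughout (log2-fold change 0.01, SE 0.063, adjusted p = 0.866, edgeR's quasi-likelihood test).

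Among the protocadherins outside the clusters PCDH1 stood apart by level and by change. PCDH1, an airway epithelial protocadherin, was at 3.33, 3.05 and 4.63 FPKM in normoxia and at 14.2, 15.1 and 13.8 FPKM in hypoxia. The hypoxia libraries were close to one another and far above normoxia, where library 3 was the highest. The fitted fold was 3.80 (log2-fold change 1.92, SE 0.10, adjusted p = 1.68e-11, edgeR's quasi-likelihood test), and the log2-fold change was 2.10 without normoxia library 3. PCDH10 was the other gene of this group to be tested, at 0.259, 0.216 and 0.171 FPKM in normoxia and 0.189, 0.218 and 0.171 FPKM in hypoxia, and did not pass.

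The clustered protocadherins were mostly scarce, with 1 exception. PCDHGC3, a C-type gamma gene, was at 8.79, 9.003 and 7.96 FPKM in normoxia and at 8.69, 7.68 and 7.39 FPKM in hypoxia, overlapping between conditions (log2-fold change -0.16, SE 0.075, adjusted p = 0.0546, edgeR's quasi-likelihood test). This value lies close to the threshold: without normoxia library 3 the log2-fold change was -0.23 with an adjusted p of 0.00437, and without hypoxia library 1 it was -0.25 with an adjusted p of 0.00955 (edgeR's quasi-likelihood test). No other clustered gene reached 1 FPKM in either condition.

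The A-type and B-type gamma genes were low, and the 9 of them that could be tested were higher in hypoxia. Of the 10 gamma genes tested, 9 were higher, where 39.2% of all genes tested were, and 1, PCDHGC3, did not pass. Of the 9, 7 passed the count limit in every hypoxia library but not in every normoxia library, which favours a higher call. The other 2, PCDHGB7 and PCDHGA10, were over the limit in every library. PCDHGB7 had 28, 22 and 30 counts in normoxia and 100, 129 and 125 in hypoxia, a fitted fold of 4.18 (log2-fold change 2.06, SE 0.25, adjusted p = 7.19e-07, edgeR's quasi-likelihood test). PCDHGB2 had 5, 7 and 5 counts in normoxia and 41, 41 and 34 in hypoxia, the largest fitted fold among the tested members, 6.37 (log2-fold change 2.67, SE 0.43, adjusted p = 2.33e-05, edgeR's quasi-likelihood test). Both genes were separated clearly between the conditions. PCDHGA4 had 11, 5 and 4 counts in normoxia and 18, 37 and 29 in hypoxia (log2-fold change 1.98, SE 0.46, adjusted p = 0.000883, edgeR's quasi-likelihood test). PCDHGB3 had 2, 0 and 8 counts in normoxia and 18, 14 and 13 in hypoxia (log2-fold change 2.06, SE 0.70, adjusted p = 0.013, edgeR's quasi-likelihood test), a call lost when normoxia library 1, normoxia library 2 or hypoxia library 1 was left out, with log2-fold changes of 1.68, 1.53 and 1.83. Without normoxia library 3 its log2-fold change was 3.74. In all 4 the hypoxia counts lay above the normoxia counts.

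Because the constant exons belong to every gene of a cluster, how reads were divided among its genes can change single values. In GENCODE release 29, 2181 of the 5432 exonic bases of PCDHGC3, or 40.2%, also belong to other genes, and so do 43.9% of those of PCDHGB7. How the authors counted such reads is not given in the sources used here. Counts were therefore also summed over each cluster. The gamma sum was 48.4, 51.1 and 44.7 CPM (counts scaled to the library total after TMM) in normoxia and 54.6, 50.6 and 50.6 in hypoxia, and did not pass (log2-fold change 0.11, SE 0.065, adjusted p = 0.132, edgeR's quasi-likelihood test).

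Within that sum the A-type and B-type genes, grouped after the values were seen, stood at 4.11, 4.09 and 4.22 CPM in normoxia and 11.4, 13.1 and 13.6 in hypoxia. Every hypoxia library was more than double any normoxia library. The fitted fold was 3.06 (log2-fold change 1.61, SE 0.13), given as a description with no test, since the group was formed from these values. PCDHGC3 took 91.0, 91.4 and 90.3% of the gamma counts in normoxia and 78.9, 73.7 and 72.8% in hypoxia, a share also chosen after the values were seen.

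The beta genes, which have no shared exons of this kind, gave 4 higher calls among 7 tested and 3 that did not pass, so that 57.1% were called, against 77.8% of all genes tested. PCDHB11 and PCDHB6 passed the count limit in every hypoxia library but not in every normoxia library, and of the 4 over the limit in every library 2 were higher and 2 did not pass. PCDHB11 was higher, with 18, 11 and 8 counts in normoxia and 36, 42 and 37 in hypoxia (log2-fold change 1.57). The beta sum was 6.85, 6.71 and 7.67 CPM in normoxia and 11.7, 12.0 and 10.9 in hypoxia, without overlap, and rose 1.63-fold (log2-fold change 0.71, SE 0.12, adjusted p = 2.91e-05, edgeR's quasi-likelihood test). None of the 13 alpha genes could be tested singly. Their summed counts were 9, 19 and 4 in normoxia and 5, 19 and 12 in hypoxia, and did not pass (log2-fold change 0.06, SE 0.58, adjusted p = 0.928, edgeR's quasi-likelihood test). With an SE of 0.58 against the beta log2-fold change of 0.71, these counts were too few to show a difference of the beta size.

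**Figure D3:**
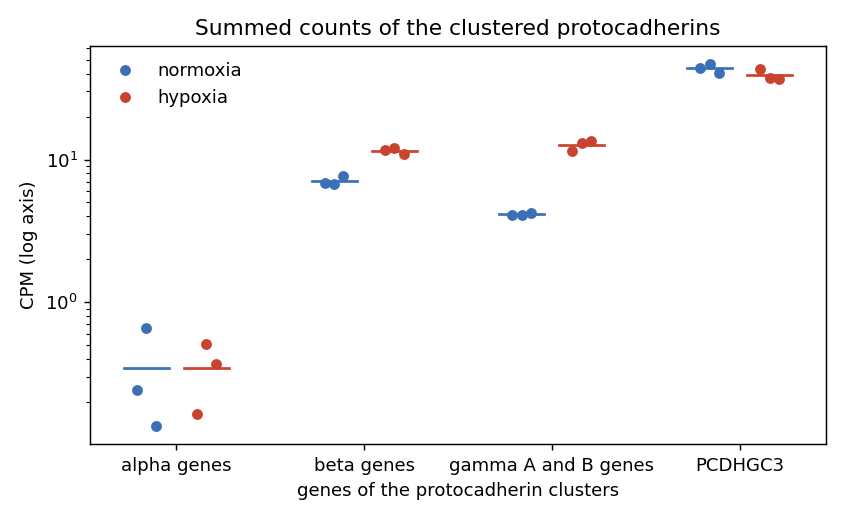
CPM (log axis) summed over the alpha, the beta and the A-type and B-type gamma protocadherin genes, and of PCDHGC3 alone, with 1 point per library and lines for the means of 3 libraries (blue normoxia, red hypoxia). The beta and the A-type and B-type gamma sums separate between conditions, while the alpha sum and PCDHGC3 overlap.

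Partner genes of cadherins were read from the same fit. Of 66 genes 53 were tested, 30 were higher, 14 were lower and 9 did not pass, with a median log2-fold change of 0.20. The 44 called are 83.0% of those tested, near the background of 77.8%. Standard errors of the partner log2-fold changes named below ran from 0.050 (CTNNA1) to 0.23 (FAT4). Among the catenins 4 of 5 tested were higher and 1 lower, where 39.2% of all genes tested were higher and 38.5% lower. CTNNB1, which encodes beta-catenin, the link from classical cadherins to alpha-catenin, was at 113, 109 and 120 FPKM in normoxia and 101, 96.2 and 95.0 FPKM in hypoxia, a log2-fold change of -0.27. CTNNA1, alpha-catenin, had a log2-fold change of 0.25, ARVCF one of 0.41 and CTNND1, p120-catenin, which stabilises cadherins at the membrane, one of 0.37. The CTNND1 row was low, at 1.10, 0.713 and 1.12 FPKM in normoxia and 1.35, 1.30 and 1.28 FPKM in hypoxia. The remaining higher catenin was JUP, which is also counted in the desmosomal list below. The table also holds a read-through row, TMX2-CTNND1, which may share reads with CTNND1.

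In the desmosomal plaque 6 of 9 genes were higher and 3 lower, where 39.2% of all genes tested were higher and 38.5% lower. JUP, plakoglobin, which binds desmosomal and classical cadherins alike, was at 90.2, 89.4 and 106 FPKM in normoxia and 173, 189 and 177 FPKM in hypoxia, a log2-fold change of 0.87. PKP1, the plakophilin of stratified epithelium, and PPL, periplakin, rose 2.31-fold and 2.82-fold. PERP, a desmosomal membrane protein, had a log2-fold change of 0.54. DSP, desmoplakin, the link to keratin, and PKP2 moved little but passed, with log2-fold changes of 0.20 and 0.21, and PKP3 was lower at -0.15. The largest decrease of the list was that of PKP4, at -0.35.

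Nectins, the calcium-independent adhesion molecules of adherens junctions, and their actin linkers gave 5 higher, 2 lower and 3 that did not pass, so that 70.0% were called, against 77.8% over all genes tested. NECTIN4 was at 0.933, 0.697 and 1.06 FPKM in normoxia and 12.8, 16.6 and 15.7 FPKM in hypoxia, a log2-fold change of 4.02, and NECTIN1 had 1.18. LIMA1, an actin-binding linker, fell by 0.95 on the log2 scale. Of the 17 giant and other cadherin-related genes 9 were tested, and 7 of these were higher and none lower, so that 77.8% were called, the same share as over all genes tested. FAT4, a giant cadherin of the planar polarity pathway, was at 0.045, 0.016 and 0.025 FPKM in normoxia and 0.777, 1.07 and 0.883 FPKM in hypoxia, a log2-fold change of 4.88. FAT2 had 2.09 and CLSTN3, a calsyntenin, 1.74.

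Of the 6 transcriptional repressors of CDH1 4 were tested, 3 were higher and none was lower, so that 75.0% were called, near the 77.8% over all genes tested. SNAI1 was at 1.48, 1.19 and 1.33 FPKM in normoxia and 2.23, 1.69 and 1.84 FPKM in hypoxia (log2-fold change 0.47, adjusted p = 0.048, edgeR's quasi-likelihood test). SNAI2 had a log2-fold change of 0.82 and TWIST1 of 0.76, both higher. ZEB2 did not pass, and ZEB1, with at most 8 counts in any library, was not tested.

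Sheddases that cut cadherins and subunits of gamma-secretase gave 4 higher, 1 lower and 3 that did not pass, so that 62.5% were called, against 77.8% over all genes tested. ADAM10, which sheds E-cadherin, had a log2-fold change of 0.35, APH1B of 1.93 and PSEN2 of -0.80. Genes that shape the protocadherin clusters gave 7 lower and 2 higher of 9, where 38.5% of all genes tested were lower and 39.2% higher. CTCF, the insulator protein that folds the clusters so that a promoter meets its enhancer, was at 26.0, 26.7 and 24.3 FPKM in normoxia and 13.5, 13.9 and 13.6 FPKM in hypoxia, a log2-fold change of -0.96. The cohesin subunits SMC1A and STAG1, which hold CTCF loops, had log2-fold changes of -0.89 and -0.86. The 2 higher genes were STAG2, also a cohesin subunit, with a log2-fold change of 0.20, and NIPBL, with 0.38.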

How the data were processed

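Total RNA of 6 SCC25 libraries was prepared per the labels with a SMARTER mRNA-Seq kit. The authors deposited gene counts, which are not normalized, and FPKM values, which in 21775 of 21776 genes follow from the counts, 1 length per gene and the library total within 0.001%. Aligner, counter, strand setting and annotation are not given in the sources used here. The submitters' processing notes name the mouse builds GRCm38 and mm10, although the samples are human and the gene symbols are human. The labels name SCC25, and the study's text names SCC9 beside its transcriptome figure. The members, gene lists and tests were chosen with earlier results of these data known.

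Counts were fitted with edgeR 4.0.16 (quasi-likelihood F test, TMM, filterByExpr with a minimum count of 10, condition as the only term) in R 4.3.3 over 14255 genes, with Benjamini-Hochberg adjustment at 0.05. Standard errors are the log2-fold change divided by the square root of F. The fits were tested on simulated data. DESeq2 1.42.0, limma 3.58.1 on log2(FPKM + 1) and other filters were alternatives. Shares were compared by an exact permutation test. The genes named in full were those with a mean of 1 FPKM or more in either condition and the 5 with the largest increase and decrease among called members with at least 10 counts in every library of 1 condition. CDH1, CDH2, CDH3, DSG2, DSG3, DSC2 and DSC3 were named whatever their values, as were 12 partner genes and, of each partner list, the 3 called genes with the largest change. CDH4, CDH5, CDH12, CDH15, PCDH10, PCDHB11, PCDHGA10, PCDHGB1, DSG1, PKP4, STAG2, NIPBL, NDRG1 and CA9 were named after their values were seen. Exon sharing came from GENCODE 29 and sequences from RefSeq GRCh38.p14.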

Additional observations from a re-analysis of the deposited data

How the results depend on the processing

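The count of higher members was 15 when at least 10 counts were asked for in every library, which left 22 members to test, and 9 by limma on log2(FPKM + 1) and also 9 on log2(FPKM + 0.1), where fewer members reach 1 FPKM; limma on log2(FPKM + 1) without a filter gave 27, and edgeR without a filter 26. Leaving out 1 library gave 19 to 27 higher members and 1 to 2 lower. The count of lower members was 2 with no filter on low counts, 0 with a log2-fold change beyond 1 and 0 by limma without a filter. In that limma fit, on log2(FPKM + 1), CDH2 lost its call (log2-fold change -0.26, adjusted p = 0.0555 by limma). Among partner genes a log2-fold change beyond 1 left 11 higher and 0 lower. CDH13 changed sign with no filter (-0.0286) and over left-out libraries (-0.0431 to 0.0640), never past the threshold. PCDHGC3 passed as lower with no filter (log2-fold change -0.21). The gamma sum passed when 10 counts were asked for in every library (0.19, adjusted p = 0.0136, edgeR's quasi-likelihood test), a filter that itself moved the median log2-fold change of all genes by 0.08. The alpha sum changed sign with no filter (-0.000238) and over left-out libraries (-0.34 to 0.86), never past the threshold. The cause of these differences was not tested.

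Replicate numbers did not pair the samples: correlations of the deviations of same-numbered libraries were 0.0175, -0.069 and 0.00122. With a replicate block 23 members were higher and 1 was lower, and 24 of the 26 calls were shared with the fit without it. With DESeq2's size factors all 26 calls were shared, and with its Wald test 23. Low counts limit the clustered protocadherins most: 12 of the tested members had under 10 counts in at least 1 library, and 10 of these belong to the beta and gamma clusters.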
